A study of Mus musculus with 8 samples.

Results

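The RNAs described here are 8 genes that make RNA with no protein product: Malat1, Meg3, Gas5, Neat1, Miat, Snhg11, Rian and Rpph1. They were picked by symbol from a table that holds 22163 genes, and for each gene the transcript record with the most counts over all libraries was used. Reference annotation classes 7 of them as long noncoding RNAs and the remaining one, Rpph1, as an RNase P RNA. The record used for Snhg11 was of the type RefSeq gives to coding transcripts, although the gene is annotated as noncoding.

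Polyribosome-associated RNA was sequenced from C57BL/6 mice aged 7 to 9 weeks, in a study of the new protein synthesis that a contextual fear memory needs. Conditioned mice had received contextual fear conditioning, which pairs a place with shock, and control mice had been placed in the context alone. RNA was taken 6 h or 1 h later from hippocampus or from frontal (prefrontal) cortex, giving 8 libraries, 1 for each combination of tissue, training and time. The labels give 4 conditioned and 4 control mice, the design text gives 8 mice and names prefrontal cortex alone, and the number of animals in a library was not given. No combination was replicated, so p-values here measure the spread between libraries left after tissue, training and time are fitted, and this spread may be technical.

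Polyribosomes are messages with several ribosomes on them, and RNAs that stay in the nucleus or code for nothing are not expected there. Malat1 is an abundant nuclear RNA of splicing speckles, Neat1 is the scaffold of nuclear paraspeckles, and Miat (Gomafu) lies in separate nuclear foci of neurons. Meg3 and Rian are transcribed from the maternal copy of the imprinted Dlk1-Dio3 domain, and Rian, Gas5 and Snhg11 carry small nucleolar RNAs or are named as hosts of them. Gas5 is spliced, exported and known to meet ribosomes in the cytoplasm, so the word nuclear does not cover it. Rpph1 is the catalytic RNA of RNase P, which trims transfer RNA precursors, and it is made by RNA polymerase III.

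Total counts ran between 2370973 and 5296986 a library, the lowest being hippocampus control 6 h, which also had the lowest TMM normalization factor, 0.732. That library stood apart: its mean squared deviations from each of the others were 83.6 to 142 times that of counting noise, against at most 50.7 times for any pair without it. The hippocampus and cortex libraries of conditioned mice at 1 h agreed within counting noise. Over 11599 genes with at least 20 counts in the pair, the mean squared deviation was 1.06 times the noise and 0 genes differed at an adjusted p under 0.05. The next closest pair of libraries had a ratio of 4.86 and 1452 such genes. The conditioned 1 h pair was therefore counted as 1 sample of no single tissue, and results are also given without it. Of 10 hippocampal excitatory neuron markers 8 were higher in hippocampus than in cortex. Of 10 cortical ones 7 were lower (edgeR, adjusted p under 0.05 for both). Libraries outside the pair differed in summed markers as their tissue labels say, but those of the pair did not. Its hippocampus and cortex libraries had 626 and 630 CPM (counts scaled by TMM effective library size) of hippocampal markers. Hippocampus and cortex of 1 h controls had 902 and 340. For cortical markers the pair had 982 and 1006 CPM, against 325 and 1410 in these controls.

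All 8 RNAs gave counts in all 8 libraries, and Malat1 made up most of them. Together they held 0.320% of counts in hippocampus and 0.308% in cortex of conditioned mice at 6 h, against 1.20% and 0.480% in controls at 6 h. At 1 h the shares were 0.0979% and 0.0982% in the conditioned pair, against 0.346% and 0.0792% in hippocampus and cortex of controls. The exact 95% binomial interval was at its widest, 1.18% to 1.21%, in the hippocampus control 6 h library, and such intervals cover counting error only. Malat1 made up between 65.3% and 92.2% of these counts.

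Levels between genes were compared per length, as CPM (counts scaled by TMM effective library size) divided by transcript length in kilobases. On that scale Malat1 lay between 72.3 and 2162 CPM per kb and Rpph1, whose RNA is 0.319 kb long, between 12.6 and 384. Malat1 stood above at least 97.4% of genes with a known length in all 8 libraries, and Rpph1 above at least 83.3%. Neat1 lay between 0.128 and 0.718 CPM per kb, above no more than 46.3% of genes. Snhg11 (8.07 to 24.7), Rian (5.38 to 10.0), Gas5 (3.07 to 25.7) and Miat (1.46 to 4.27) had overlapping ranges except that Miat stayed below Snhg11 and Rian. Rpph1 was not above these throughout: in hippocampus control 6 h it had 12.6 CPM per kb, against 25.7 for Gas5 and 24.7 for Snhg11, and in cortex conditioned 6 h 15.8, against 18.0 for Snhg11. Meg3 had 5.10 to 67.5 CPM per kb with its 14.5 kb transcript. A second Meg3 record of 1.99 kb had nearly the same counts, 9000 in all against 9270, and reads shared by the records were not told apart, so the Meg3 level per kb is uncertain by the ratio of these lengths.

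The RNAs also differed in how far they moved between libraries. The highest CPM was 30.4 times the lowest for Rpph1, 29.9 times for Malat1, 13.2 times for Meg3 and 8.37 times for Gas5. It was 3.05 times for Snhg11, 2.92 times for Miat and 1.86 times for Rian, whereas the median of 10582 genes with a mean of at least 4 CPM was 3.15 times. The Rian ratio was below that of all but 14.7% of these genes.

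**Figure D1:**
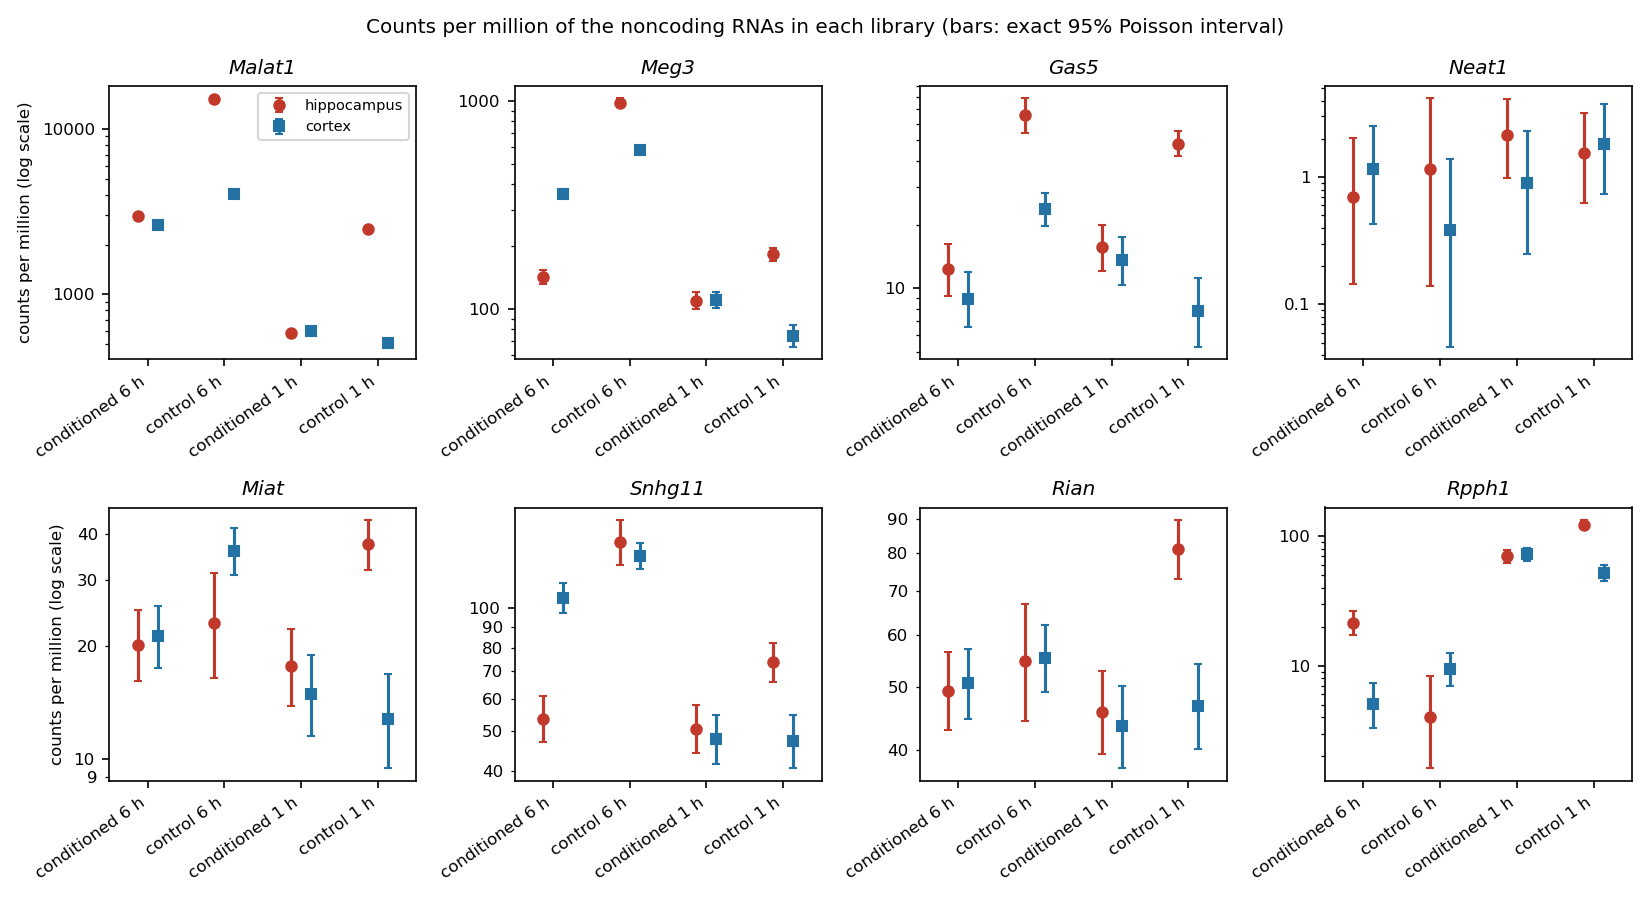
CPM of each RNA in each library, on log axes. Points are single libraries (red circles hippocampus, blue squares cortex) and bars are exact 95% Poisson intervals of the counts. Malat1 spans 505 to 15094 CPM and Rpph1 4.03 to 123 CPM, with Malat1 higher and Rpph1 lower at 6 h than at 1 h, while Rian stays between 43.5 and 81.0 CPM.

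Base composition set these RNAs apart from each other and is shown because the 6 h and 1 h libraries differed along it. Rpph1 has 67.1% G and C, more than 99.8% of the genes tested, and Rian has 35.8%, more than only 0.210% of them. Malat1 has 42.5%, Gas5 42.3%, Snhg11 44.8%, Meg3 49.2% and Miat 54.9%, and the median gene has 50.4%. The first 150 bases of the RNase P RNA and of Malat1 are printed from GENCODE M21 transcripts (GRCm38, both on the minus strand, transcripts at chr14:50807449-50807767 and chr19:5795690-5802672), with G and C in capitals.
Rpph1: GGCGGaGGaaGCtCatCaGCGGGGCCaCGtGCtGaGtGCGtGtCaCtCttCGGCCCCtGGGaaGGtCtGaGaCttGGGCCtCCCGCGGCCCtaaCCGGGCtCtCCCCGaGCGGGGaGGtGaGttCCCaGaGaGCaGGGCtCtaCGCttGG
Malat1: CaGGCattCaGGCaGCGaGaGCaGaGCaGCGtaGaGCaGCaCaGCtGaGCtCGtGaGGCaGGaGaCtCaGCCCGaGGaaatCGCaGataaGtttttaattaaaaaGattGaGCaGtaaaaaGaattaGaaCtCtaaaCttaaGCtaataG
These stretches hold 68.0% and 44.7% G and C.

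The time comparison asked which polyribosomal RNAs differed between 6 h and 1 h after the session. Malat1 was 6.03 times and Meg3 4.12 times as abundant at 6 h as at 1 h in the fit, Snhg11 1.95 times, and Rpph1 0.125 times. Gas5, Miat and Rian did not pass the test, and Neat1 had too few counts to pass the filter on low counts. In numbers, 3 of the 7 tested RNAs were higher at 6 h, where 20.5% of all records tested were, and 1 of 7 was lower, where 17.2% were.

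Malat1 had 2957 CPM in hippocampus and 2616 in cortex of conditioned mice at 6 h, and 15094 and 4025 in hippocampus and cortex of controls at 6 h. At 1 h it had 586 and 597 CPM in the conditioned pair and 2465 and 505 in hippocampus and cortex of controls. The 6 h libraries lay above the 1 h libraries without overlap. The closest were 2616 at 6 h in cortex of conditioned mice and 2465 at 1 h in hippocampus of controls. How many of all genes lacked overlap in the same way was not counted, here or for the RNAs below. The fitted log2 change was 2.59 ± 0.39 (SE, edgeR quasi-likelihood test, Benjamini-Hochberg adjusted p = 0.0064). Means were 6173 ± 5978 CPM at 6 h (SD, n = 4) and 1187 ± 1108 CPM at 1 h (SD, n = 3).

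Rpph1 went the other way. It had 21.4 CPM in hippocampus and 5.04 in cortex of conditioned mice at 6 h, and 4.03 and 9.41 in controls at 6 h. At 1 h it had 70.0 and 72.3 CPM in the conditioned pair and 123 and 52.0 in hippocampus and cortex of controls. Again the groups did not overlap, and the 6 h values rested on 7 to 92 counts. The fitted log2 change was -3.0 ± 0.43 (SE, edgeR, adjusted p = 0.0064).

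Meg3, a maternally expressed RNA of the imprinted domain, had 143 CPM in hippocampus and 359 in cortex of conditioned mice at 6 h, and 982 and 584 in controls at 6 h. At 1 h it had 110 and 111 CPM in the conditioned pair and 183 and 74.3 in hippocampus and cortex of controls. Only the hippocampus conditioned 6 h library fell within the 1 h range, and the log2 change was 2.04 ± 0.47 (SE, edgeR, adjusted p = 0.0118). Snhg11, a neuronal RNA named as a host of a small nucleolar RNA, had 53.7 and 106 CPM in hippocampus and cortex of conditioned mice and 145 and 134 in controls at 6 h. Its 1 h values were 50.8 and 47.8 in the conditioned pair and 73.7 and 47.3 in controls. Here too the hippocampus conditioned 6 h library lay within the 1 h range, and the log2 change was 0.97 ± 0.31 (SE, edgeR, adjusted p = 0.0330).

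The other RNAs showed no change with time that passed the test. Gas5 averaged 27.6 ± 26.1 CPM at 6 h (SD, n = 4) and 23.6 ± 21.6 at 1 h (SD, n = 3), a log2 change of 0.33 ± 0.40 (SE, edgeR, adjusted p = 0.528). Miat averaged 25.1 ± 7.28 CPM at 6 h and 22.2 ± 13.3 at 1 h, a log2 change of 0.33 ± 0.37. Rian averaged 52.5 ± 2.98 CPM at 6 h and 57.5 ± 20.4 at 1 h, a log2 change of -0.05 ± 0.26. Neat1 had 2 to 6 counts a library at 6 h and 4 to 9 at 1 h. Exact 95% Poisson intervals run between 0.242 and 7.22 for 2 counts and between 4.12 and 17.1 for 9. With the pair averaged to 1 value Neat1 had 0.384 to 1.16 CPM at 6 h and 1.53 to 1.83 at 1 h, without overlap. Taken singly, the cortex conditioned 1 h library had 0.906 CPM from 4 counts, within the 6 h range. In a fit without the filter the log2 change of Neat1 was -1.05 ± 0.58 and did not pass (adjusted p = 0.197, edgeR).

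**Figure D2:**
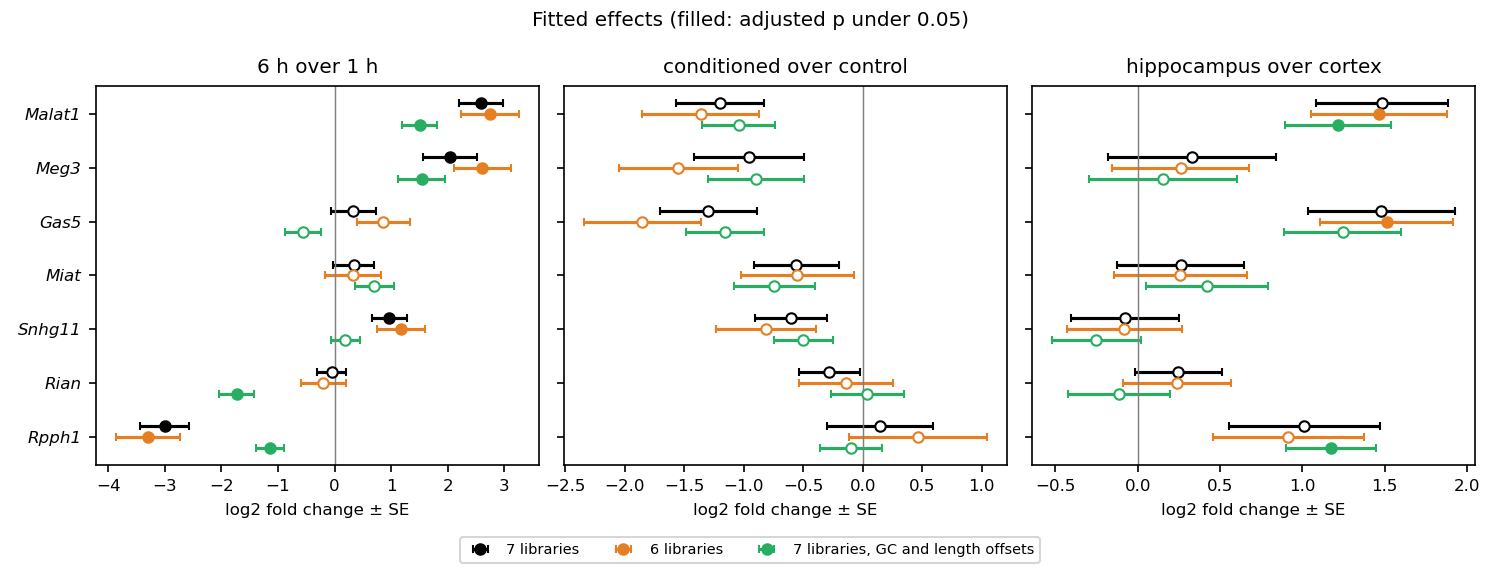
Fitted log2 fold changes ± SE of the 7 tested RNAs for 6 h over 1 h, conditioned over control and hippocampus over cortex. Colours are the fit on 7 libraries, the fit on 6 libraries without the conditioned 1 h pair and the fit with GC and length offsets, and filled points have an adjusted p under 0.05. Malat1, Meg3 and Rpph1 are filled in all plotted fits for time, and no point is filled for training.

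The time calls stood on few libraries. Without the conditioned 1 h pair the same RNAs passed the test, with log2 changes of 2.74 for Malat1, 2.61 for Meg3, 1.17 for Snhg11 and -3.29 for Rpph1. Without the hippocampus control 6 h library Malat1 (2.33), Meg3 (1.55) and Rpph1 (-2.55) passed (edgeR). Without the cortex control 1 h library 0 of the 16464 records tested passed in edgeR, 5532 having an unadjusted p under 0.05. The changes were then 2.26 for Malat1 and -3.02 for Rpph1, each with an adjusted p of 0.0710 (edgeR), and 1.51 for Meg3 (adjusted p = 0.0892). Without the hippocampus control 1 h library Meg3 (adjusted p = 0.0578) and Snhg11 (adjusted p = 0.0736) did not pass (edgeR), and 1830 records did, against 6167 with all. Snhg11 also did not pass without the cortex control 6 h (adjusted p = 0.0550), hippocampus control 6 h (adjusted p = 0.0563) or cortex conditioned 6 h library (adjusted p = 0.110, edgeR), the last of which left 2540 records. With upper-quartile factors, which put the median of all records at -0.15 in place of -0.03, Snhg11 had an adjusted p of 0.0552 (edgeR).

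Many genes moved with time along their base composition, and this was measured beside each RNA. Among genes with under 42% G and C the median log2 ratio of 6 h to 1 h was 0.91 in hippocampus and 1.06 in cortex of conditioned mice, and 1.58 and 1.19 in controls. Among genes with at least 54% it was -0.57 and -0.76 in conditioned mice, and -1.44 and -0.76 in controls. Against genes within 2 percentage points of its own composition, Malat1 lay above the median in every pair of libraries, at 2.33 against 0.74 in hippocampus and 2.13 against 0.85 in cortex of conditioned mice, and at 2.61 against 1.14 and 2.99 against 0.91 in controls. Rpph1 lay below the median of its 50 such genes in every pair, at -1.69 against -0.89 and -3.72 against -1.39 in conditioned mice, and at -4.77 against -2.90 and -2.41 against -1.21 in controls. For conditioned mice both tissues were set against the 1 h libraries that count as 1 sample of no single tissue, so those ratios are not independent.

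When the fit took an offset for GC content and length, the changes were smaller for Malat1 (1.50 ± 0.31, adjusted p = 0.0175) and Rpph1 (-1.14 ± 0.25, adjusted p = 0.0209) and still passed the edgeR test. With these offsets on the 6 libraries without the pair, an alternative chosen after seeing the data, Rpph1 had -1.13 ± 0.40 and did not pass (adjusted p = 0.0970, edgeR), while Malat1 (1.52), Meg3 (1.96) and Rian (-2.13) did. Meg3 kept 1.54 ± 0.41 (adjusted p = 0.0366, edgeR), although its second record has 55.2% G and C. Snhg11 had 0.19 ± 0.25 and did not pass, Gas5 turned to -0.56 ± 0.32 without passing, and Rian, the RNA poorest in G and C, was lower at 6 h by -1.73 ± 0.31 (adjusted p = 0.0117, edgeR). So 2 of 7 were higher at 6 h, with 7.18% of all records (1149), and 2 of 7 were lower, with 3.81% (610). The Rian composition was taken from the longest transcript of its symbol, since its record had no match by accession.

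**Figure D3:**
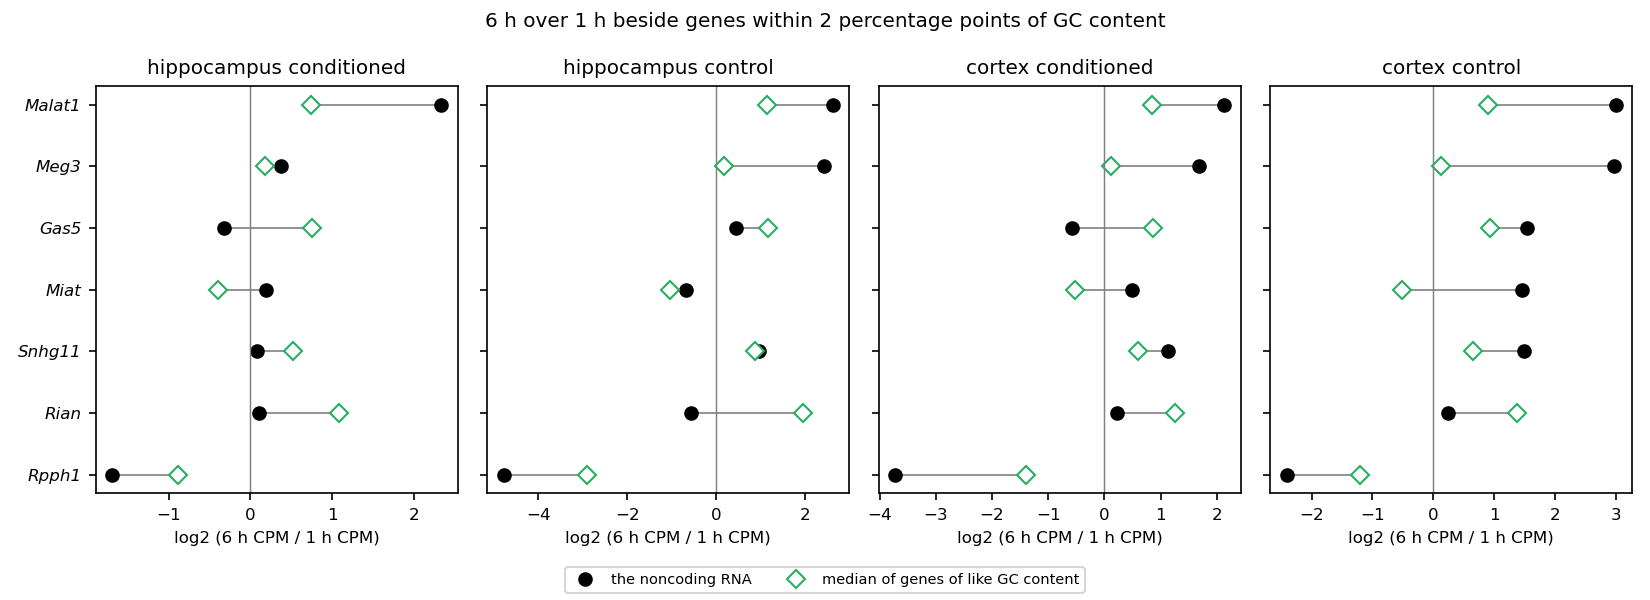
Log2 ratio of 6 h to 1 h for each RNA (black circles) and the median of genes within 2 percentage points of its GC content (green diamonds), in each tissue and training group. Malat1 lies right of its diamond and Rpph1 left of it in all 4 panels, and Rian lies left of its diamond in all 4. The conditioned panels share the 1 h pair that counts as 1 sample.

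Marker genes of cell types also differed with time. The summed level of 8 neuron markers was 17810 to 29471 CPM at 6 h and 8098 to 10962 CPM at 1 h. That of 7 astrocyte markers was 1571 to 3059 and 1335 to 1546 CPM. Such sums follow the most abundant markers, and single markers were mixed. Of the neuron markers 4 passed as higher at 6 h and 2 as lower, and of the astrocyte markers 2 and 2 (edgeR). Among all genes 19.8% were higher and 18.0% lower. The mean log2 CPM of both lists overlapped between the times. Sums for oligodendrocytes (632 to 1193 at 6 h, 843 to 1299 at 1 h), microglia, vessels and red cells overlapped between the times. Their part in the changes of these RNAs was not tested, and in such bulk samples fewer cells of a type and less RNA per cell cannot be told apart.

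The training comparison asked what conditioning did to polyribosomal RNA relative to the context alone. In hippocampus the conditioned library was lower at both times for Malat1, Meg3, Gas5, Miat, Snhg11 and Rian. At 1 h that library belongs to the pair counted as 1 sample of no single tissue, so its ratios may not compare like tissue. In cortex at 6 h all 7 tested RNAs were lower, and in cortex at 1 h 1 of the 7, Rian, was. The median log2 ratio of all records lay between -0.02 and 0.08 in these pairs of libraries. None of the differences of the 7 RNAs passed the test over all libraries. With 1 library a side, the ratios within a tissue and time describe those 2 libraries, not the training.

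In hippocampus at 6 h, Malat1 had 2957 CPM in the conditioned library, against 15094 in the control library, a log2 ratio of -2.35. Meg3 had 143 CPM against 982 (-2.78), Gas5 12.3 against 65.7 (-2.37) and Snhg11 53.7 against 145 (-1.42). Miat (20.2 against 23.0) and Rian (49.3 against 54.7) were within their counting intervals of equal levels, and Rpph1 was higher, 21.4 CPM against 4.03, from 92 and 7 counts. Thus 4 of 7 were at least 2-fold lower, where 12.8% of all records were. In the same pair of libraries the median log2 ratio was -0.88 for genes with under 42% G and C and 1.00 for genes with at least 54%, the direction in which Malat1 and Rpph1 lie, and the part of this in their ratios was not tested.

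In cortex at 6 h the ratios were smaller. Malat1 had 2616 CPM in the conditioned library, against 4025 in the control library (-0.62), Meg3 359 against 584 (-0.70) and Gas5 8.92 against 23.6 (-1.36, from 46 and 123 counts). Gas5 alone, 1 of 7, was at least 2-fold lower, where 1.28% of all records were. The medians by composition here lay between -0.03 and 0.03.

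At 1 h both tissues are compared with the conditioned pair that agrees within noise. Tissue markers in that pair lay between those of the 1 h controls, as did its levels of Malat1, Meg3, Gas5 and Miat. The part of tissue in the ratios below was not tested. In hippocampus Malat1 had 586 CPM in the conditioned library against 2465 in the control library (-2.07), Gas5 15.6 against 48.2 (-1.60) and Miat 17.7 against 37.4 (-1.06). These 3 of 7 were at least 2-fold lower, where 3.46% of all records were. In cortex Malat1 had 597 CPM against 505 (0.24), Meg3 111 against 74.3 (0.57) and Gas5 13.6 against 7.84 (0.76), all higher in the conditioned library.

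**Figure D4:**
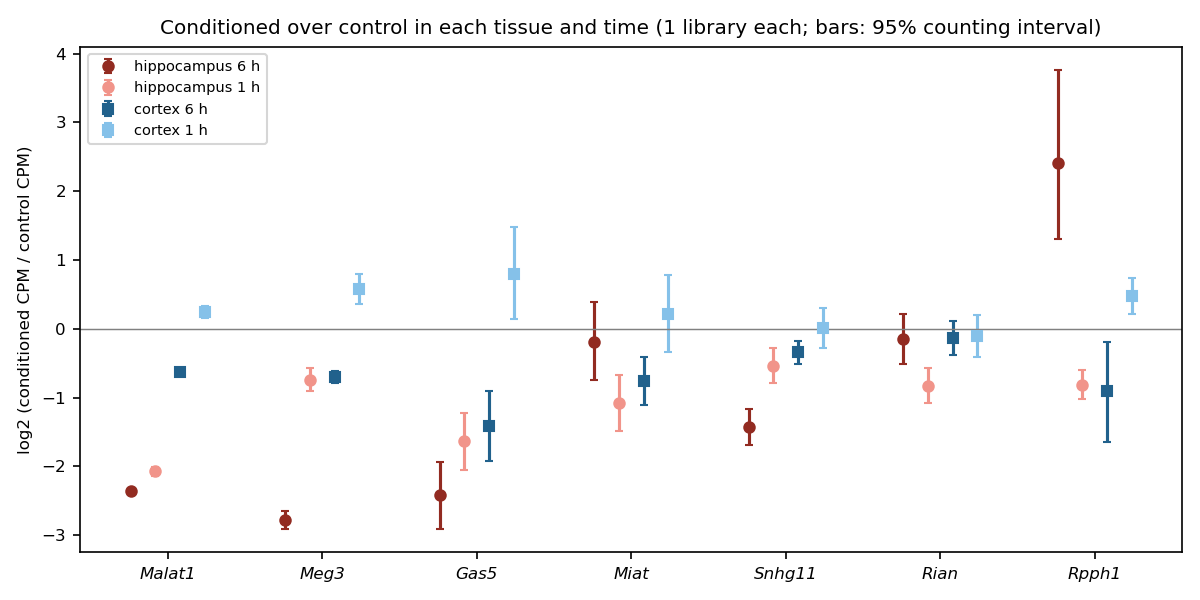
Log2 ratio of conditioned to control CPM (no prior count) for each tested RNA in each tissue and time, 1 library a side, with 95% counting intervals. Malat1, Meg3 and Gas5 lie below 0 everywhere but in cortex at 1 h, and Rpph1 lies above 0 in hippocampus at 6 h. The conditioned libraries at 1 h are the pair of no single tissue.

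Over all libraries, the log2 change with conditioning was -1.30 ± 0.41 for Gas5, -1.20 ± 0.37 for Malat1 and -0.95 ± 0.46 for Meg3 (SE, edgeR, adjusted p = 0.943 for each). Snhg11 had -0.60 ± 0.30, Miat -0.56 ± 0.36, Rian -0.28 ± 0.26 and Rpph1 0.15 ± 0.45. Of the 7, 6 were below 0 with a median of -0.60, beside 49.1% of genes and a median of 0.01 for all genes tested. None of the 7 passed, and neither did any record (0%) in edgeR, DESeq2 or limma-voom. At an unadjusted p under 0.05 edgeR gave 296 of 16378 records, Malat1 and Gas5 among them. Means were 2055 ± 1279 CPM in conditioned libraries (SD, n = 3) and 5522 ± 6542 in controls (SD, n = 4) for Malat1, and 11.9 ± 2.85 and 36.3 ± 25.7 CPM for Gas5, with overlap for both. Without the conditioned 1 h pair the changes were -1.85 for Gas5, -1.55 for Meg3 and -1.36 for Malat1 (adjusted p = 0.911 for each, edgeR). Without the hippocampus conditioned 6 h library they shrank to -0.78 for Gas5, -0.31 for Meg3 and -0.73 for Malat1. Without the hippocampus control 6 h library they were -1.20, -0.72 and -1.04 for the same RNAs, and without the cortex control 1 h library -1.68, -1.46 and -1.49. Summed cell type markers overlapped between conditioned and control libraries for all 10 marker lists.

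Whether the training difference varied with time or tissue was tested as an interaction. For tissue the difference between hippocampus and cortex was -1.89 ± 0.60 for Malat1, -2.26 ± 0.92 for Meg3 and -1.30 ± 0.57 for Snhg11 on the log2 scale (SE, edgeR, adjusted p = 0.848 for each). For conditioned mice the tissues differ in the 6 h libraries alone, since the 1 h pair was counted once. None of the 7 RNAs and 0% of records passed, in edgeR or limma-voom, and 696 records, Malat1 and Meg3 among them, had an unadjusted p under 0.05 in edgeR. For time none of the 7 and 0% of records passed in edgeR or limma-voom, with 73 records at an unadjusted p under 0.05 and none of the 7 among them.

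In the tissue comparison Malat1 and Gas5 had the largest differences among the 7. Malat1 had 2957, 15094 and 2465 CPM in hippocampus (conditioned 6 h, control 6 h, control 1 h), against 2616, 4025 and 505 in cortex. Gas5 had 12.3, 65.7 and 48.2 CPM in hippocampus, against 8.92, 23.6 and 7.84 in cortex. Hippocampus was higher in each of these matched pairs, although the ranges overlapped. The log2 differences were 1.48 ± 0.40 for Malat1 (SE, edgeR, adjusted p = 0.0818) and 1.48 ± 0.45 for Gas5 (adjusted p = 0.120), so 0 of 7 passed, where 3.43% of all records did, and both had an unadjusted p under 0.05. Without the conditioned 1 h pair both passed, at 1.47 ± 0.41 (adjusted p = 0.0472) and 1.51 ± 0.40 (adjusted p = 0.0350, edgeR), so 2 of 7 were higher in hippocampus, where 1.72% of all records were. DESeq2 on 7 libraries called both and limma-voom neither. Both also passed without the hippocampus conditioned 6 h library, with 2.03 for Malat1 (adjusted p = 0.0240) and 2.06 for Gas5 (adjusted p = 0.0361, edgeR), and without the hippocampus control 6 h library Rpph1 passed instead, with 1.45 (adjusted p = 0.0093, edgeR). Malat1 (1.19, adjusted p = 0.0985) and Gas5 (1.21, adjusted p = 0.185) did not pass in that fit (edgeR). Without the cortex control 1 h library the differences were 1.05 for Malat1 (adjusted p = 0.569) and 0.91 for Gas5 (adjusted p = 0.568, edgeR). Striatal markers were lower in hippocampus (7 of 9 called, summed level 31.1 to 64.8 CPM, against 182 to 363 in cortex, without the pair). Choroid plexus markers were higher (2 of 3 tested were called, summed level 16.7 to 77.9 CPM in hippocampus, against 3.68 to 7.49 in cortex). The part of these markers in these differences was not tested. Rpph1 had 1.01 ± 0.46, Meg3 0.33 ± 0.51, Miat 0.26 ± 0.39, Rian 0.25 ± 0.27 and Snhg11 -0.08 ± 0.33.

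Meg3 and Gas5 share a promoter feature. Of 8 RefSeq promoter windows (GRCm38.p6, 250 bases before to 50 after a start) of 6 of the genes, 1 of Meg3 and 1 of Gas5 held TGACGTCA, the full cAMP response element to which CREB, a factor known for its part in memory, binds. The motif reads the same on both strands, and 588 of 32851 windows of all genes (1.79%) held it. The last 100 bases before the start and the first 50 after it are printed with the motif in capitals, Meg3 at chr12:109540896-109541045 and Gas5 at chr1:161035066-161035215, both on the plus strand.
Meg3: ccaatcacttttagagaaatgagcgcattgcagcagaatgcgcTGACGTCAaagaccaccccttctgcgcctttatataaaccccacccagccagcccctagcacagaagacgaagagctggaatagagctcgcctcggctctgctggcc
Gas5: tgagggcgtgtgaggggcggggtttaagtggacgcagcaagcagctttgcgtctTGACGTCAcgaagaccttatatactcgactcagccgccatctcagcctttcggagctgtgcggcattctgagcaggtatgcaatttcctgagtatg
The motif begins 57 bases before the start of Meg3 and 46 before that of Gas5. A match describes these letters only, and no binding was measured.

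The Dlk1-Dio3 domain holds 6 listed genes in the table, of which 5 were tested. Meg3 was the 1 that rose with time and none fell, beside 19.8% higher and 18.0% lower among all 12259 genes tested. Dlk1, Rtl1 and Dio3, the protein-coding genes of its paternal side, and Rian did not pass. With GC and length offsets Meg3 and Dlk1 (1.82, adjusted p = 0.0300) were higher and Rian was lower at 6 h (edgeR). In the tissue comparison Dlk1, which codes for a Notch-related membrane protein, was higher in hippocampus by 2.63 ± 0.40 (adjusted p = 0.0074, edgeR), with 10.5, 15.5 and 6.86 CPM in hippocampus against 1.94, 2.11 and 0.784 in cortex (conditioned 6 h, control 6 h, control 1 h). Of 45 imprinted protein-coding genes 32 were tested, and 6 rose and 2 fell with time, beside the same 19.8% and 18.0% of all genes. With offsets 5 rose and 3 fell, beside 6.44% higher and 4.15% lower among all genes. Inpp5f (1.35), a phosphoinositide phosphatase, and Ube3a (1.62), the ubiquitin ligase of Angelman syndrome, rose (edgeR).

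Other noncoding RNAs were read from lists of their kinds. Of 7 tested hosts of small nucleolar RNAs, Snhg14, the long RNA of the Prader-Willi region that runs antisense to Ube3a, rose by 2.22 ± 0.42 (adjusted p = 0.0075, edgeR) beside Snhg11, and none fell, against the same 19.8% higher and 18.0% lower of all genes. With offsets 0 of 7 were higher in edgeR, Snhg14 having 0.75 ± 0.27 (adjusted p = 0.0949), and 1 was lower, Rian. That list also holds Cwf19l1, a protein-coding host. Reads of Snhg14 and Ube3a cannot be told apart where they overlap, since strand was not stated. Of 14 other long noncoding RNAs tested 6 rose with time and none fell, Tug1 (1.22), Oip5os1 (1.24), Peg3os (1.52) and Kcnq1ot1 (2.12) among them, with a list median of 0.46 beside -0.06 for all genes, of which 19.8% were higher and 18.0% lower. With GC and length offsets 0 of 13 rose and 1 fell in edgeR, Mir22hg (-1.03, adjusted p = 0.0413), and the list median was -0.07 beside -0.03. Rmrp, the RNA of RNase MRP, which shares most of its proteins with RNase P, was the 1 small structured RNA tested. It had 10.2 and 4.85 CPM in hippocampus and cortex of conditioned mice and 0.576 and 4.99 in controls at 6 h, against 24.2 and 23.8 in the conditioned pair and 26.1 and 40.8 in controls at 1 h. It fell by 2.57 on the log2 scale (± 0.51, adjusted p = 0.0086, edgeR), as Rpph1 did, has 64.2% G and C, and did not pass with offsets (-0.74 ± 0.41).

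The proteins that work with these RNAs were mixed. Of 11 RNase P and MRP proteins 2 rose with time, Rpp38 (1.41) and Rpp30 (1.30), and 4 fell, among them Rpp25l (-1.85) and Pop5 (-1.25), with a list median of 0.19. Of 17 paraspeckle proteins 6 rose, Matr3 (1.33) and Zfp24 (1.34) among them, and 1 fell, Rbm14 (-1.23). Of 25 speckle and splicing proteins 7 rose, Prpf4b (1.90) and Pnn (1.95) among them, and 2 fell. These shares stand beside 19.8% higher and 18.0% lower among 12259 genes tested, and no gene of these lists passed the test for training in edgeR. With GC and length offsets 2 rose and 0 fell among the RNase P and MRP proteins, 0 rose and 2 fell among the paraspeckle proteins, and 3 rose and 2 fell among the speckle and splicing proteins, beside 6.44% higher and 4.15% lower among all genes (edgeR).

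The 7 values of log2 CPM were also used to find the genes most like each RNA, as a description over 7 libraries that differ along base composition and depth. Among the RNAs themselves Meg3 and Snhg11 were the most alike (Pearson r = 0.98), Malat1 and Meg3 followed (0.90), and Rpph1 ran opposite to Meg3 (-0.81). Among 6180 other genes with a mean log2 CPM of at least 4, Cplx2, a regulator of synaptic vesicle release, was nearest to Malat1 (0.99), with Krt222 and Otud6b next. Meg3 had Egln1, Cdr1 and Ids, Snhg11 had Thumpd1, Nkain2 and Egln1, and Rpph1 had Dnaja4, Gabarap and Ndufv3. Miat had Norad (0.99), itself a long noncoding RNA, then Coa5 and Rnf227, and Gas5 had Slc25a51 (0.97), Ndufv2 and Rsl24d1. Rian had Zfp706 (0.96), Minar2 and Rpl23a. For Neat1, Cbr1, Dhx15 and Ndel1 came first, from counts too low to read.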

How the data were processed

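The deposited file is 1 table of raw counts per transcript record for 8 libraries, made by the authors. TopHat 1.3.1 with build mm9, CASAVA 1.7, limma 3.12.3 and edgeR 2.612 are named per the submitters' processing notes. Which program counted the reads, and whether it used strand, is not stated there. Per the labels' protocols 200 ng of RNA was depleted of ribosomal RNA, copied from random hexamer and poly A primers, and amplified by SPIA and PCR, so counts are not independent molecules. Symbols matched 97.9% of 28157 rows.

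Counts of the conditioned 1 h pair were summed, and edgeR 4.0.16 in R 4.3.3 (filterByExpr, TMM, robust quasi-likelihood, Benjamini-Hochberg, threshold 0.05) fitted tissue, training and time on 16378 rows with 3 residual degrees of freedom. SEs are the log2 change over the root of F. CPM used TMM library sizes, and ratios a prior count of 2. DESeq2 1.42.0 and limma 3.58.1 (voom) were alternatives. Scripts were tested on simulated data. All 8 members are named, list genes where they passed (at most 4), and the 3 nearest genes of each RNA. The members and lists were chosen with earlier results of these data known. Promoters are RefSeq's, RNA sequences GENCODE's.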

Additional observations from a re-analysis of the deposited data

Results flagged for a closer look

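For 5 RNAs every ratio of one group of library pairs lay on one side of 0 and every ratio of the other group on the other side. For tissue 1 of the groups held a single ratio, so such a split arises easily. The share of all genes that meet this rule was not counted. Single pairs differed in sign elsewhere too, such as Rpph1 for training at 6 h, with 2.28 in hippocampus and -0.84 in cortex, and Miat for time in controls, with -0.69 in hippocampus and 1.45 in cortex. Gas5 was lower at 6 h than at 1 h in conditioned mice, with log2 ratios of -0.33 in hippocampus and -0.58 in cortex, and higher in controls, with 0.44 and 1.53. Both conditioned ratios are over the 1 h pair counted as 1 sample of no single tissue, so they are not separate results. Gas5 had 15.6 and 13.6 CPM in that pair, between 48.2 in hippocampus and 7.84 in cortex of 1 h controls. The training by time interaction for Gas5 was -1.30 ± 0.74 (edgeR, adjusted p = 1). Meg3 was lower in hippocampus than in cortex in conditioned mice at 6 h (-1.33) and higher in controls at 6 h (0.75) and 1 h (1.30), and its training by tissue interaction was -2.26 ± 0.92 (edgeR, adjusted p = 0.848). Snhg11 did likewise, with -0.97 in conditioned mice at 6 h and 0.11 and 0.63 in controls at 6 h and 1 h, and an interaction of -1.30 ± 0.57 (edgeR, adjusted p = 0.848). Miat was lower in hippocampus than in cortex at 6 h (-0.075 in conditioned mice, -0.63 in controls) and higher at 1 h (1.51 in controls). Rian had -0.038 in conditioned mice and -0.016 in controls at 6 h and 0.79 in controls at 1 h. The 95% counting intervals of the 6 h Rian ratios were -0.31 to 0.23 and -0.37 to 0.32, which include 0. The interval of Gas5 for time in hippocampus of conditioned mice, -0.89 to 0.21, also included 0. So did those for tissue at 6 h of Miat in conditioned mice (-0.50 to 0.34) and Snhg11 in controls (-0.10 to 0.32). For Miat and Rian the difference was not tested. Each of these ratios comes from 1 library a side. Among controls and among 6 h libraries, 4 each, Dixon's test on log2 CPM marked no library for any of the 8 RNAs, where chance would mark about 1 in 20 sets. These small sets mix tissues, and times or trainings, so the test could hardly mark a library and does not decide whether 1 stands apart. The hippocampus control 6 h library was nevertheless the highest for Malat1, with 15094 CPM against 2616 to 4025 in the other 6 h libraries.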

How the results depend on the processing

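No RNA passed for training under any of the alternatives. Leaving out 1 library at a time left 0 to 4 RNAs and 0 to 7327 records called for time, and 0 to 2 RNAs and 1 to 1101 records for tissue. Called RNAs for time were 2 of the 6 tested with at least 20 counts in every library, a filter that removes Rpph1. For tissue they were 2 without the pair, 2 with DESeq2, 1 without a filter, 2 with offsets, 3 when the pair was left out together with hippocampus control 6 h, and 3 with offsets on 6 libraries, an alternative chosen after seeing the data. Records called for time were 6167 of 16378 in the main fit, 3745 of 16123 without the pair and 3874 of 8814 with the stricter filter. With offsets 1759 of 15994 were called for time, without the pair and that library 1128 of 16820, and with offsets on 6 libraries 853 of 15744. Records called for tissue were 561 of 16378 in the main fit, 0 of 16304 with 8 libraries as labelled and 600 of 16123 without the pair. They were 813 of 16378 with DESeq2, 685 of 22154 without a filter and 361 of 8814 with the stricter filter. With offsets 1081 of 15994 were called for tissue, and with rows of a gene summed 367 of 12441. Without the pair and that library it was 874 of 16820, and with offsets on 6 libraries 1012 of 15744.

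Signs turned as follows, and the cause was not tested. With offsets these were Gas5 for time (-0.56), Rian for training (0.039), tissue (-0.12) and training by tissue (0.41), and Rpph1 for training (-0.10) and training by time (-0.041). With offsets on 6 libraries they were Gas5 for time (-0.093), Rian for training (0.45) and tissue (-0.20), and Rpph1 for training (-0.12). With the pair and hippocampus control 6 h left out they were Meg3 for tissue (-0.066), Rian for time (0.020) and Rpph1 for training (-0.62). With 8 libraries Rian had 0.0047 for time and Miat -0.031 for training by time, where Miat had -0.012 with RLE factors and -0.079 with limma-voom. Leaving out 1 library gave -0.34 to 1.07 for Meg3 by tissue, -0.15 to 0.75 for Gas5 by time, and -0.074 to 0.76 by time and -0.23 to 0.61 by tissue for Miat. It gave -0.44 to 0.35 for Snhg11 by tissue, -0.20 to 0.17 by time and -0.014 to 0.41 by tissue for Rian, and -0.30 to 0.65 for Rpph1 by training.

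With all records of each gene summed, the RNAs held 0.0898% to 1.27% of a library's counts. No paired analysis was possible because the labels give no replicate numbers, and tissue and time, which match the libraries, are already terms of the fit. With 1 library a combination, low counts limit Neat1 in every library and Rpph1 at 6 h.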
